A study of Homo sapiens with 30 samples.

Results

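The collagen chain genes are the genes whose platform symbol is COL, a number, A and a number, each of which encodes 1 alpha chain of a collagen. They were taken from probe sets annotated with exactly 1 symbol, and a gene with several probe sets was represented by whichever averaged highest across all 30 arrays. The rule gave 32 chains, from 73 probe sets, among 11963 genes measured. Expression was measured with Affymetrix arrays in human small airway epithelial (SAE) cells, commercially supplied cells from the lining of the narrow airways, plated in flasks as a submerged culture. Multi-walled carbon nanotubes (MWCNT) or titanium dioxide nanobelts (TiO2-NB, written TiO2 here) were added at 10 or 100 ug/ml, or nothing was, and RNA was taken after 1 or 24 h. The 10 groups held 3 arrays each: a control at 0 ug/ml, MWCNT 10, MWCNT 100, TiO2 10 and TiO2 100, at both times. The labels call the arrays of a group biological replicates without saying whether they came from separate donors, so p-values measure the spread between these cultures. The number of arrays limits the precision.

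Collagens are extracellular proteins in which alpha chains wind into a triple helix, and they differ in what that helix assembles into. Fibrillar chains form the banded fibrils of connective tissue, type IV chains form the sheet-like network of basement membranes, and other classes coat fibrils, form beaded filaments, anchor the epithelium or span the cell membrane. Epithelial cells rest on a basement membrane and contribute type IV collagen to it, whereas most fibrillar collagen in the lung comes from mesenchymal cells. Chains are hydroxylated and folded in the endoplasmic reticulum, exported, trimmed and cross-linked outside the cell.

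The values are log2 expression as deposited, so a difference of 1 is a doubling. Array medians ran from 7.15 to 7.21, and the median of the whole table was 7.18. The mean correlation of an array with the others of its group was 0.9952 to 0.9986, lowest for replicate 1 of the 24 h control, which also had the lowest array weight (0.289, against up to 5.32). Where leaving that array out ended a call on a chain or a named gene, or moved a named chain's value by over 1.5 times, this is given beside the result. Of all genes, 60% were above the table median in at least 1 group, so counts of markers above it tell little by themselves. Of 7 measured epithelial markers 4 were above it, led by KRT18 at 12.9 and KRT8 at 11.7, while EPCAM was at 6.90 and KRT19 at 5.89. Of 8 basal cell markers 4 were above it, with KRT5 at 7.24, and KRT14 (3.94) and KRT15 (4.99) well under it. Among markers of other cells, 4 of 11 fibroblast, 3 of 7 smooth muscle and pericyte, 1 of 8 leukocyte and 0 of 9 endothelial genes were above the median. The fibroblast genes above it were FBN1 (10.4), TWIST1 (8.66), THY1 (8.18) and PDGFRB (7.31), whereas LUM (2.59) and DCN (5.62) were low. In bulk RNA, fewer cells of a type and less RNA per cell cannot be told apart.

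The arrays carry no detection call, so a chain was described as near background where none of its 10 group means reached the table median of 7.18. By that measure 20 of the 32 chains were near background and 12 were not. The same limit was passed by 60% of all genes. All 6 type IV chains were above it (COL4A1 to COL4A6). Of 9 fibrillar chains 2 were (COL1A1 and COL5A1), of 7 fibril-associated chains 1 (COL9A3), of 3 beaded filament chains 1 (COL6A1), and of 3 short-chain network chains 1 (COL8A1). The transmembrane chain COL13A1 also was, while the anchoring fibril chain COL7A1 and both multiplexins, COL15A1 and COL18A1, were not. These levels are those of the probe set with the highest mean. The other sets of COL1A1 (means 3.83 to 6.92), COL13A1 (6.52 and 3.06) and COL8A1 (3.40) averaged under 7.18. So did those of COL4A3 (3.99 to 5.95) and COL4A6 (4.34 and 5.63). COL9A3 was the closest chain above the limit, with a highest group mean of 7.23, and COL7A1 the closest under it, at 7.11. With the 25th percentile of the table (5.40) as the limit, 8 chains were near background in place of 20.

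The 5 chains with the highest mean over the 30 arrays were COL4A2 (10.01), COL4A1 (9.35), COL4A5 (9.35), COL6A1 (9.30) and COL4A3 (8.43). A level on one probe set cannot be set against that on another, so this order describes signal and not the number of transcripts. COL4A2 stood at the 79.5 percentile of all genes. At the other end were COL15A1 (2.96), COL21A1 (3.86) and COL11A1 (3.98). COL1A1 and COL1A2, whose products join in type I collagen, had 8.02 and 5.30.

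**Figure D1:**
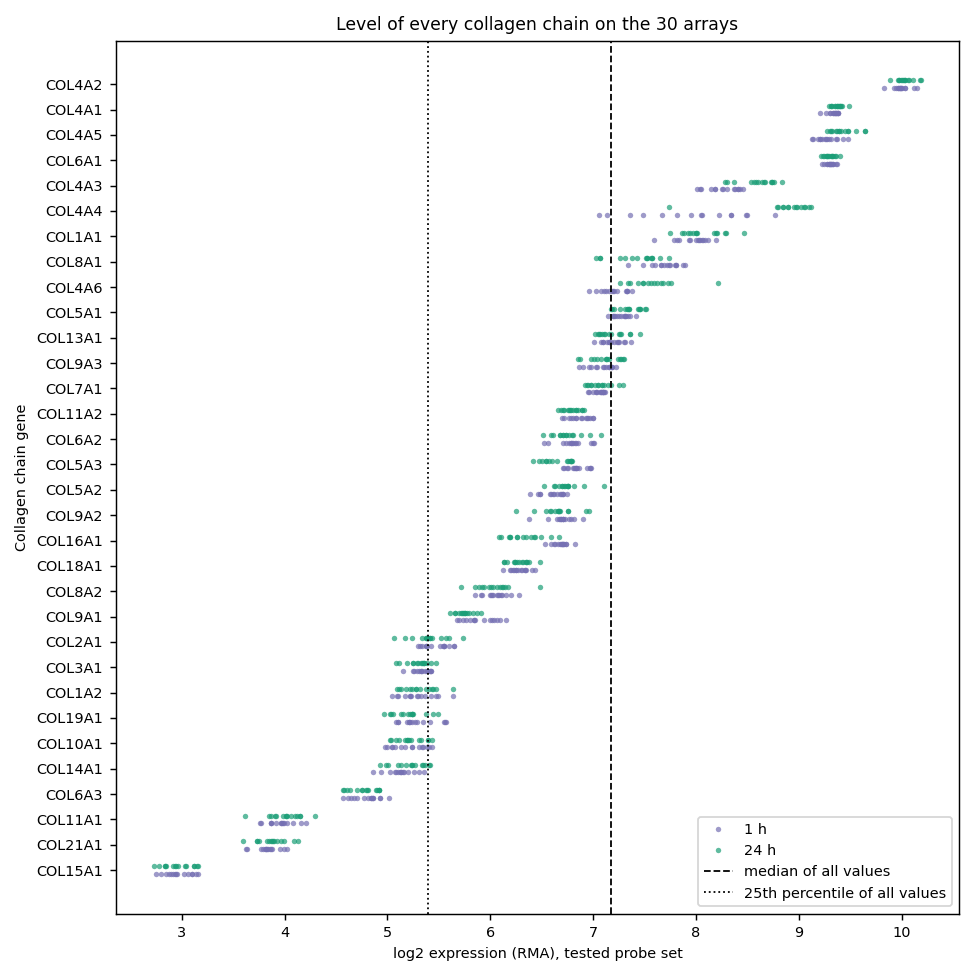
The log2 level of each of the 32 chains on the 30 arrays, one point per array, with 1 h and 24 h arrays in separate colours and the table median (dashed) and 25th percentile (dotted) as lines. Only 12 chains have a group mean at or above the dashed line of 7.18, all 6 type IV chains among them, and COL4A4 shows the widest spread, from 7.05 to 9.12.

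The 10 group means of every gene were estimated together in limma, with p-values adjusted over the 11963 genes of a comparison by the Benjamini-Hochberg method and 0.05 as the threshold. A chain past it is said to have risen, fallen or changed. Over the 21 comparisons 18 chain and comparison pairs passed, from 11 chains, and 21 chains passed in none. Per comparison 0% to 18.8% of the chains passed, against 0% to 31.7% of all genes. Of those 11 chains 7 were above the background limit, and 4 were near background (COL5A2, COL5A3, COL8A2 and COL16A1). In all 18 pairs the 3 arrays of one group lay wholly above the 3 of the other.

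The type IV chains come from genes that lie in pairs, head to head on opposite strands. COL4A1 and COL4A2 encode the chains found in nearly all basement membranes, and COL4A3, COL4A4 and COL4A5 those of the network in kidney and alveolar basement membranes. The RefSeq table of promoters (GRCh38.p14) held 23 of the 32 chains. In it the start sites were 127 bases apart for COL4A1 and COL4A2, 419 for COL4A3 and COL4A4, and 380 for COL4A5 and COL4A6. COL4A6 had 2 windows there, and the window that overlapped most with that of COL4A5 was used. The 250 bases before the start are shown for 2 of the pairs, one whose chains passed in no comparison and one that holds the chain with the largest differences. COL4A1 is at chr13:110307158-110307407 (minus strand) and COL4A2 at chr13:110307034-110307283 (plus strand). COL4A3 is at chr2:227164374-227164623 (plus strand) and COL4A4 at chr2:227164206-227164455 (minus strand). Each is written 5' to 3' on its own strand, and capitals mark the stretch that it shares, as the reverse complement, with its partner.
COL4A1: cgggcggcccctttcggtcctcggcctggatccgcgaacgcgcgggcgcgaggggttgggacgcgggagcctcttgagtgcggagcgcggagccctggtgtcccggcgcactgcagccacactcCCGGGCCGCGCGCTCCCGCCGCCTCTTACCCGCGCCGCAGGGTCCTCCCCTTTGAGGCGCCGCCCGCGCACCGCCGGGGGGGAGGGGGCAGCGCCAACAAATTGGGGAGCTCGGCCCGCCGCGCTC
COL4A2: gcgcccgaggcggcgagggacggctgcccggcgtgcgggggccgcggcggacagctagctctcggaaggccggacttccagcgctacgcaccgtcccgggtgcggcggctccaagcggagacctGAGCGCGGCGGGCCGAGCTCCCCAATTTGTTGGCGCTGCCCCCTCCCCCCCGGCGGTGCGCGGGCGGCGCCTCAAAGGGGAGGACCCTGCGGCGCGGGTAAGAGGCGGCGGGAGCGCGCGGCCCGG
COL4A3: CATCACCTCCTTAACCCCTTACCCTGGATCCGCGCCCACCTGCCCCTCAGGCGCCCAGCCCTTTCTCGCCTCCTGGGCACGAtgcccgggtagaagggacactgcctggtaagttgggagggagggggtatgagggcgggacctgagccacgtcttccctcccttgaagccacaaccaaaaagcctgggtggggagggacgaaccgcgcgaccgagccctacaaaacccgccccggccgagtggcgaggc
COL4A4: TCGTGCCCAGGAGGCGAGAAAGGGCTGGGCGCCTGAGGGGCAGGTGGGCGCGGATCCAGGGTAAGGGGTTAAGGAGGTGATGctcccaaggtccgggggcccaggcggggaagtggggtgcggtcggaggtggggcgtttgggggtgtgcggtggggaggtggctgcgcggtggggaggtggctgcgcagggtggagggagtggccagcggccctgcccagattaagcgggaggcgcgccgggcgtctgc
The shared stretch is where both windows of 250 bases overlap, so its length follows from the distance between the start sites. It was 126 bases for COL4A1 and COL4A2, 82 for COL4A3 and COL4A4, and 121 for COL4A5 and COL4A6. Only for COL4A1 and COL4A2 did it span all bases between the start sites.

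Over the full windows of 300 bases, which add 50 bases after the start, GC content was 76.7% and 77.7% for COL4A1 and COL4A2, 67.7% and 74.0% for COL4A3 and COL4A4, and 49.3% and 43.7% for COL4A5 and COL4A6. The median of the 35116 windows in the table was 58.7%. CpG dinucleotides numbered 45 in both windows of the first pair, 24 and 29 in those of COL4A3 and COL4A4, and 8 and 7 in those of COL4A5 and COL4A6, against a median of 14. Motifs were searched on both strands, and no match overlapped one of another motif. The GC box GGGCGG, held by 45.0% of all windows, matched at 2 places for COL4A1, 1 for COL4A2 and 2 for COL4A3, and at 0 for COL4A4, COL4A5 and COL4A6. CCAAT, held by 34.6%, matched at 1 place each for COL4A1 and COL4A2, 2 for COL4A5 and 3 for COL4A6, and at 0 for COL4A3 and COL4A4. TATAAA (11.5% of all windows), the AP-1 motif TGACTCA (4.95%) and the EGR motif GCGTGGGCG (0.795%) had 0 matches in all 6 windows.

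At 1 h, COL4A4 was the chain that differed from the controls. On its only probe set the controls had 7.14, 7.05 and 7.36, and the MWCNT 10 arrays 7.67, 7.49 and 7.82. The MWCNT 100 arrays had 7.95, 8.04 and 8.06. The TiO2 10 arrays had 8.48, 8.35 and 8.22, and the TiO2 100 arrays 8.50, 8.34 and 8.77. Every exposed array was above every control array, and every TiO2 array was above every MWCNT array.

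COL4A4 rose by 1.35 ± 0.20 (SE) with TiO2 100, from a mean of 7.19 ± 0.16 to 8.54 ± 0.22 (SD, n = 3), a 2.55-fold rise (adjusted p = 0.000144). It rose by 1.16 ± 0.20 with TiO2 10, or 2.24-fold (adjusted p = 0.00461), and by 0.83 ± 0.20 with MWCNT 100, or 1.78-fold (adjusted p = 0.0251). With MWCNT 10 the difference was 0.47 ± 0.20, which did not pass (adjusted p = 0.379). These SEs use a spread pooled over all 10 groups. The COL4A4 SD was 0.70 in the 24 h controls, where replicate 1 stood apart, and 0.060 to 0.22 in the 1 h groups. With the 2 groups alone in limma, adjusted p was 0.322 for MWCNT 10 and 0.00742 for MWCNT 100. No refit of a 1 h comparison left out a 24 h array. Both TiO2 calls held in every fit that left out 1 array (adjusted p up to 0.0479 for TiO2 10 and 0.00334 for TiO2 100, over all alternatives). The MWCNT 100 call was lost without control replicate 1 (0.81, adjusted p = 0.0964), without control replicate 2 (0.77, adjusted p = 0.135), and without MWCNT 100 replicate 1 (0.87, adjusted p = 0.0545), 2 (0.82, adjusted p = 0.0866) or 3 (0.81, adjusted p = 0.115). Read against all genes, 0.0669% were called with MWCNT 10, 1.7% with MWCNT 100, 0.711% with TiO2 10 and 2.12% with TiO2 100. Of the 32 chains limma called 0 with MWCNT 10, with 3 at an unadjusted p under 0.05, and 1 in each of the others, COL4A4 every time. The 4 exposed groups share their controls.

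The other chains of the alveolar and kidney network had smaller differences at 1 h, none of which passed. COL4A3 had 8.05, 8.04 and 8.15 in the controls, 8.01, 8.30 and 8.43 with MWCNT 10, and 8.46, 8.41 and 8.38 with MWCNT 100. It had 8.41, 8.19 and 8.37 with TiO2 10 and 8.19, 8.26 and 8.26 with TiO2 100. Only the MWCNT 10 arrays overlapped those of the controls. The differences were 0.17, 0.34, 0.25 and 0.16 in the same order, each ± 0.10, and the smallest adjusted p was 0.0822, with MWCNT 100. Another COL4A3 probe set (mean 5.95) gave 0.30 ± 0.08 for MWCNT 100, and the remaining 5 gave -0.22 to 0.15. COL4A5 differed by 0.058, 0.0039, -0.094 and -0.15, each ± 0.08, with the smallest adjusted p at 0.512.

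COL4A1 and COL4A2 kept within narrow ranges. The 10 group means of COL4A1 ran from 9.29 to 9.41 and those of COL4A2 from 9.96 to 10.09. The pooled SD of arrays within a group was 0.050 and 0.084. Neither passed in any of the 21 comparisons. At 1 h COL4A1 had a mean of 9.32 in the controls and 9.29 to 9.37 in the exposed groups. COL4A2 had 10.00 in the controls and 9.96 to 10.03 in the exposed groups. COL6A1, a chain of the beaded filaments that lie next to basement membranes, had group means of 9.23 to 9.34 and passed in none either.

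Between the particles at 1 h, COL4A4 was lower with MWCNT than with TiO2 by 0.69 ± 0.20 at 10 ug/ml (95% interval 0.28 to 1.10 lower, adjusted p = 0.35) and by 0.52 ± 0.20 at 100 ug/ml (adjusted p = 0.701). Neither passed, although the arrays did not overlap. With array weights in limma the COL4A4 difference at 10 ug/ml did pass (adjusted p = 0.0176). Without weights limma called 0 of the 32 chains in both comparisons, with 4 and 2 at an unadjusted p under 0.05. Of all genes, 0.00836% and 0.0167% were called. The dose comparisons at 1 h gave 0 called chains, with 1 at an unadjusted p under 0.05 for each particle. The share of all genes was 0.635% for MWCNT and 0.293% for TiO2. COL4A4 had the largest difference among chains above background in both, 0.36 ± 0.20 for MWCNT (adjusted p = 0.818) and 0.19 ± 0.20 for TiO2 (adjusted p = 1).

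**Figure D2:**
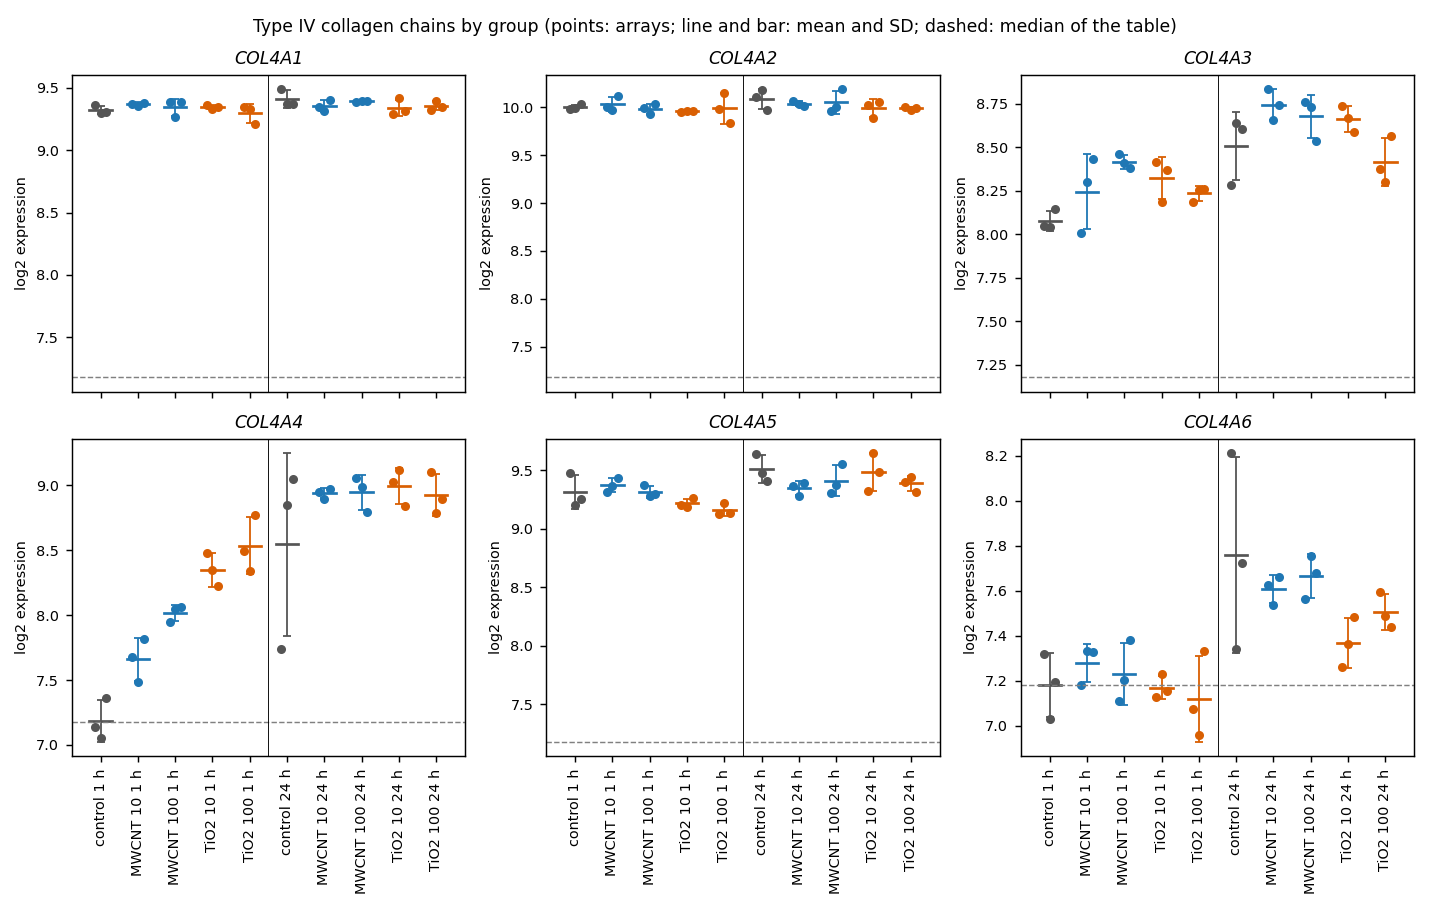
Log2 level of the 6 type IV chains in each group, one panel per chain with its own axis, with a point per array, a bar for the mean and SD of 3 arrays and the table median of 7.18 dashed. COL4A4 rises from 7.19 in the 1 h controls to 8.54 with TiO2 100 and lies near 9 in every exposed group at 24 h, while the means of COL4A1 stay between 9.29 and 9.41.

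Between 1 and 24 h the unexposed controls themselves changed in 6 of the 32 chains: COL4A3, COL4A4, COL4A6 and COL5A2 rose, and COL5A3 and COL16A1 fell. In this comparison 31.7% of all genes were called, against 18.8% of the chains. The median difference was 0.020 over the chains and -0.011 over all genes.

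COL4A4 had 7.74, 8.85 and 9.05 in the 24 h controls. All 3 lay above the 1 h controls, the highest of which had 7.36, and replicate 1 lay nearest to them. The mean rose by 1.36 ± 0.20, or 2.57-fold (adjusted p = 7.29e-06), and by 1.76 without replicate 1 (adjusted p = 1.08e-10). COL4A3 had 8.28, 8.64 and 8.60, above the 1 h controls on all 3 arrays, and rose by 0.43 ± 0.10 (adjusted p = 0.00114). Its other probe set with a mean of 5.95 gave 0.47 ± 0.08, and the rest gave -0.09 to 0.29. COL4A6 had 7.32, 7.03 and 7.19 at 1 h and 8.21, 7.34 and 7.73 at 24 h. The groups nearly touched, with the lowest 24 h array at 7.34 and the highest 1 h array at 7.32, and the mean rose by 0.58 ± 0.13 (adjusted p = 0.00161), with both other probe sets at 0.17 and 0.18. Without 24 h replicate 1 it rose by 0.35 (adjusted p = 0.02). The call on COL4A6 was lost when the 2 groups were fitted alone (adjusted p = 0.0819). COL4A5 differed by 0.20 ± 0.08 (adjusted p = 0.0609), and by 0.13 without 24 h replicate 1 (adjusted p = 0.289).

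Type V collagen helps to start collagen fibrils and limits their width. Of its 3 measured chains COL5A2 and COL5A3, both near background, moved in opposite directions, while COL5A1, above background, differed by 0.15 ± 0.08 (7.23 to 7.38, adjusted p = 0.144). Without 24 h replicate 1 COL5A1 differed by 0.088 (adjusted p = 0.483). COL5A2 had 6.70, 6.38 and 6.47 at 1 h and 7.11, 6.72 and 6.75 at 24 h. It rose by 0.34 ± 0.10 (adjusted p = 0.00864), a call lost without 24 h replicate 1 (0.22, adjusted p = 0.0996), without 1 h replicate 2 (0.27, adjusted p = 0.0614), or with the 2 groups alone (adjusted p = 0.102). COL5A3 had 6.98, 6.86 and 6.83 at 1 h and 6.65, 6.58 and 6.48 at 24 h and fell by 0.32 (SE 0.09, adjusted p = 0.00791), with its other probe set at -0.22. COL16A1, a fibril-associated chain, had 6.69, 6.69 and 6.83 at 1 h and 6.10, 6.59 and 6.26 at 24 h. All 24 h arrays were below all 1 h arrays, and it fell by 0.42 (SE 0.09, adjusted p = 0.000456). Epithelial markers moved over the same interval, in which 31.7% of all genes were called: KRT8 by -0.50, KRT18 by -0.47 and DSP by 0.21. The mean of the 7 epithelial markers was 8.96 to 9.01 on the 1 h control arrays and 8.79 to 8.85 at 24 h. Of 11 fibroblast markers 1 rose (FBN1, 0.29) and 2 fell (FAP and TWIST1), and the smooth muscle and pericyte genes RGS5, SYNM and ACTA2 rose by 0.79, 0.33 and 0.34 while ACTG2 fell by 0.44. Of the endothelial and leukocyte genes ERG and CD14 fell. Without 24 h control replicate 1 KRT8 fell by 0.30, and the calls on DSP, ACTA2, ERG and CD14 were lost (adjusted p from 0.0526 to 0.152). Their part in these results was not tested.

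At 24 h limma called 0 of the 32 chains with MWCNT at either dose, with 3 at an unadjusted p under 0.05 for 10 ug/ml and 0 for 100 ug/ml. The share of all genes called was 0% and 0%. COL4A4 had 8.95, 8.90 and 8.97 with MWCNT 10 and 9.06, 8.99 and 8.79 with MWCNT 100. With TiO2 10 it had 9.02, 9.12 and 8.84, and with TiO2 100 9.10, 8.78 and 8.90. These 12 arrays lay between 8.78 and 9.12, at the level of control replicates 2 and 3 (8.85 and 9.05) and above control replicate 1 (7.74). Against the control mean the differences were 0.40, 0.40, 0.45 and 0.38, each ± 0.20, and none passed. Without control replicate 1 the MWCNT differences were -0.0055 and -9.08e-05 (adjusted p = 1 for both), and those of TiO2 10 and TiO2 100 were 0.047 and -0.020 (adjusted p = 0.876 and 0.937). All but that of TiO2 10 had then changed sign.

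Whether a particle's difference itself changed from 1 to 24 h was tested as an interaction. Of the 32 chains limma called 0 in all 4 tests, with 0, 0, 6 and 7 at an unadjusted p under 0.05 for MWCNT 10, MWCNT 100, TiO2 10 and TiO2 100. The shares of all genes were 0%, 0.669%, 0.0167% and 2.2%. The largest difference among chains above background was COL4A4 in 3 of them, at -0.43 ± 0.28 for MWCNT 100, -0.71 ± 0.28 for TiO2 10 and -0.97 ± 0.28 for TiO2 100 (adjusted p = 0.808, 0.278 and 0.0673). Without 24 h control replicate 1 all 3 passed, at -0.83, -1.12 and -1.37 (adjusted p = 0.00983, 0.00117 and 3.14e-05). For MWCNT 10 it was COL4A6, at -0.25 ± 0.19 (adjusted p = 0.86), and at -0.024 without the same control array.

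TiO2 for 24 h gave 1 called chain at 10 ug/ml and 2 at 100 ug/ml, or 3.12% and 6.25% of the chains, where 6.05% and 13.2% of all genes were called. The unadjusted counts were 10 and 7. The median difference of the chains was -0.030 and -0.0059, against -0.025 and -0.031 over all genes. COL8A1, a short-chain collagen of hexagonal lattices beneath endothelia and in the eye, had 7.65, 7.31 and 7.52 in the controls and 7.03, 7.07 and 7.07 with TiO2 10. All TiO2 10 arrays were below all controls, and it fell by 0.44 (SE 0.12, adjusted p = 0.0316). With TiO2 100 it had 7.57, 7.51 and 7.38. The call was lost without control replicate 1 (-0.36, adjusted p = 0.146) or 3 (-0.42, adjusted p = 0.055), and without TiO2 10 replicate 1, 2 or 3 (-0.42 to -0.45, with adjusted p of 0.0773, 0.0535 and 0.0924). It was also lost with cyclic loess, with the 2 groups alone and with the mean of both probe sets (adjusted p = 0.0745, 0.124 and 0.138), and the other probe set (mean 3.40) gave -0.037 ± 0.13.

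COL1A1, the chain that makes up most of type I collagen, had 7.92, 7.97 and 8.005 in the 24 h controls and 8.18, 8.29 and 8.47 with TiO2 100. With TiO2 10 it had 8.19, 8.21 and 8.29. All TiO2 arrays were above all controls. It rose by 0.35 ± 0.10 with TiO2 100, or 1.27-fold (adjusted p = 0.0237), and the difference with TiO2 10 was 0.26 ± 0.10 (adjusted p = 0.0995). The call was lost without TiO2 100 replicate 3 (0.27, adjusted p = 0.124), without control replicate 1 (0.33, adjusted p = 0.0747) and with the 2 groups alone (adjusted p = 0.0986). The other 3 probe sets of COL1A1 (means 3.83 to 6.92) gave -0.18 to 0.04, and the mean of all 4 gave 0.055 (adjusted p = 0.578).

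COL9A3, a chain of the type IX collagen that coats cartilage fibrils, had 7.24, 7.29 and 7.13 in the controls and 6.98, 6.87 and 6.86 with TiO2 100. No array of the groups overlapped, and it fell by 0.32 (SE 0.08, adjusted p = 0.0102) on its only probe set. With TiO2 10 it had 7.13, 7.04 and 7.004, a difference of -0.16 ± 0.08 (adjusted p = 0.175). The TiO2 100 call held in all fits that left out 1 array and was lost with the 2 groups alone (adjusted p = 0.0869). The dose comparison of TiO2 at 24 h called 0 chains, with 5 at an unadjusted p under 0.05 and 0.986% of all genes called. COL8A1 had the largest difference there, 0.43 ± 0.12 higher at 100 than at 10 ug/ml (adjusted p = 0.0737). For MWCNT the dose comparison called 0 chains too, with 1 at an unadjusted p under 0.05 and 0% of all genes. Its largest difference was COL5A1 at -0.15 (adjusted p = 1).

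Between the particles at 24 h, 2 chains were called at 10 ug/ml and 4 at 100 ug/ml, where 4.88% and 12.2% of all genes were. These comparisons share their TiO2 arrays with those against the controls. At 10 ug/ml COL8A1 had 7.27, 7.53 and 7.73 with MWCNT and was higher than with TiO2 by 0.45 ± 0.12 (adjusted p = 0.0274). It lost the call without MWCNT replicate 3 (0.34, adjusted p = 0.119) and without TiO2 replicate 1, 2 or 3 (0.44 to 0.46, adjusted p = 0.0656, 0.056 and 0.0813), and in the same 3 other settings as against the control (adjusted p = 0.0611, 0.104 and 0.1). COL16A1 had 6.67, 6.35 and 6.49 with MWCNT and 6.19, 6.18 and 6.09 with TiO2, and was higher with MWCNT by 0.35 ± 0.09 (adjusted p = 0.0253). It lost the call without MWCNT replicate 1 (0.27, adjusted p = 0.197) or 3 (0.36, adjusted p = 0.0625) and without TiO2 replicate 3 (0.32, adjusted p = 0.098), and with the 2 groups alone (adjusted p = 0.107).

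At 100 ug/ml COL9A3 had 7.28, 7.13 and 7.27 with MWCNT and was higher than with TiO2 by 0.32 ± 0.08 (adjusted p = 0.0092). This call held in all 12 alternatives, with adjusted p up to 0.0448. COL1A1 had 7.86, 7.998 and 7.88 with MWCNT and was lower by 0.40 (SE 0.10, adjusted p = 0.0117), a call lost without TiO2 replicate 3 (-0.32, adjusted p = 0.0683), with its other probe sets at -0.13 to 0.16 and the mean of all 4 at -0.096 (adjusted p = 0.31). COL13A1, a transmembrane collagen of cell adhesions, had 7.02, 7.08 and 7.10 with MWCNT and 7.36, 7.36 and 7.27 with TiO2. It was lower with MWCNT by 0.26 (SE 0.08, adjusted p = 0.0366), and the call was lost whichever array of either group was left out (-0.24 to -0.29, adjusted p from 0.0561 to 0.112) and with the mean of its 3 probe sets (-0.11, adjusted p = 0.167). COL8A2, the partner chain of COL8A1 and near background, had 6.13, 6.49 and 6.11 with MWCNT and 5.89, 5.92 and 5.99 with TiO2. It was higher with MWCNT by 0.31 ± 0.10 (adjusted p = 0.0436), and by 0.18 (adjusted p = 0.246) without MWCNT replicate 2, its high array. That call was also lost without TiO2 replicate 1, 2 or 3 (0.29, 0.30 and 0.33, adjusted p = 0.122, 0.0932 and 0.0716), and with the 2 groups alone (adjusted p = 0.0786). Its other probe set gave -0.027, and the mean of both 0.14 (adjusted p = 0.204).

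**Figure D3:**
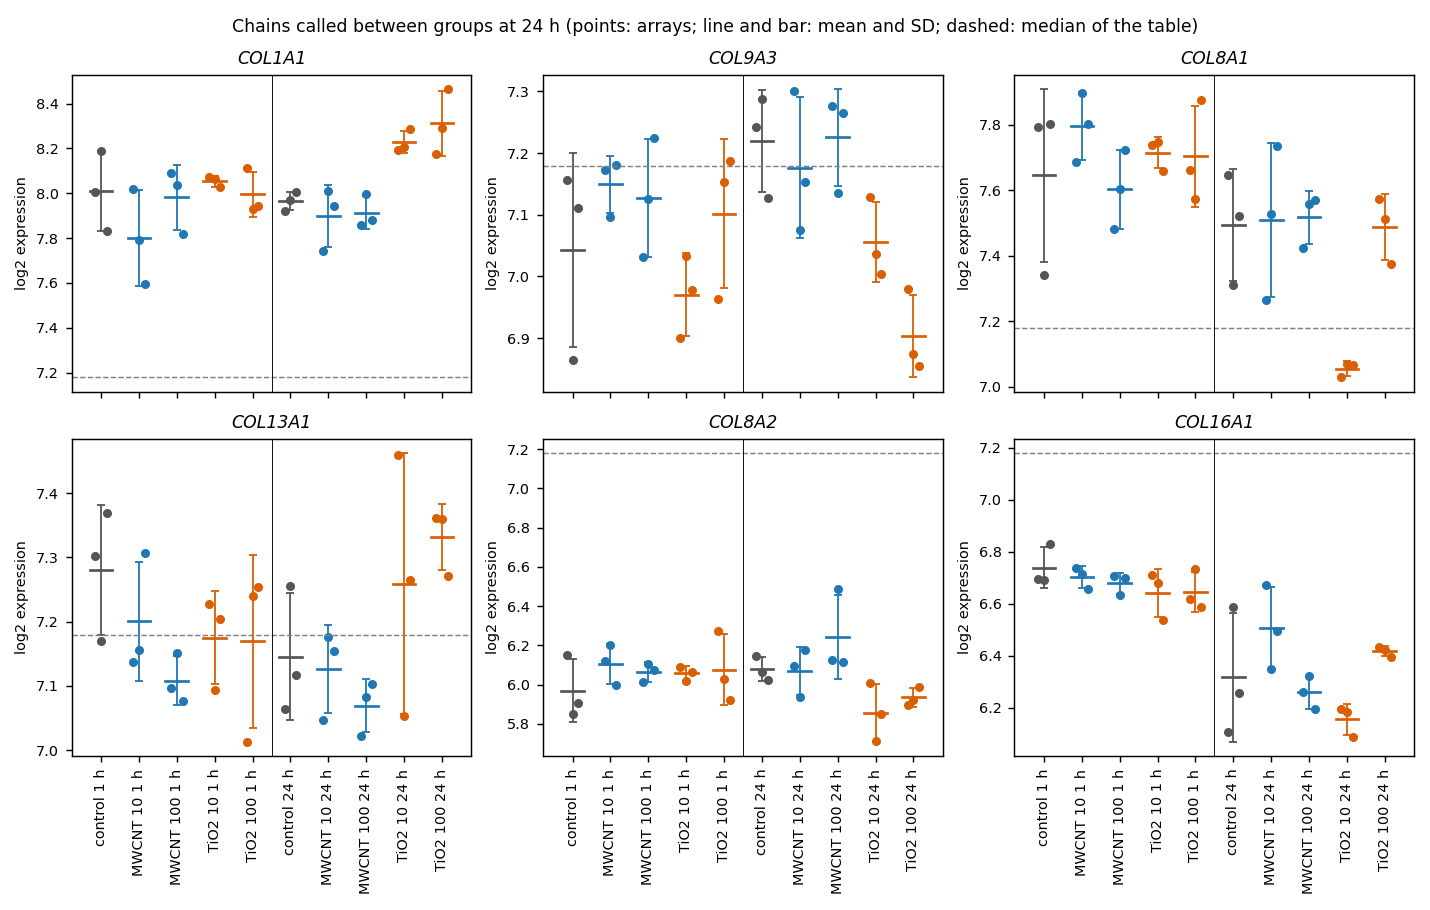
Log2 level, in all 10 groups, of the 6 chains called between groups at 24 h, one panel per chain with its own axis, with a point per array, a bar for the mean and SD of 3 arrays and the table median dashed. COL1A1 is highest (8.31) and COL9A3 lowest (6.90) with TiO2 100 at 24 h, and COL8A1 is lowest (7.05) with TiO2 10.

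Markers of cell state moved in the same TiO2 groups at 24 h. Of all genes, 13.2% were called there with TiO2 100 and 6.05% with TiO2 10. With TiO2 100, 4 of 7 epithelial markers fell (KRT19 by 0.55, KRT8 by 0.50, CDH1 by 0.39 and KRT18 by 0.30), as did KRT5 and CDH3 of the 8 basal markers, each by 0.24. The mean of the 7 epithelial markers was 8.79 to 8.85 on the control arrays and 8.52 to 8.61 on the TiO2 100 arrays. Of 11 fibroblast markers DCN rose by 0.41 and FBN1 fell by 0.33, and the mean of the list was 5.71 to 5.76 in the controls and 5.72 to 5.80 with TiO2 100. The smooth muscle gene MYH11 and the endothelial gene ERG rose by 0.35 and 0.26. With TiO2 10, CDH1 and FBN1 fell and the endothelial gene TIE1 rose. Without control replicate 1 the calls on KRT5, CDH3, DCN and ERG with TiO2 100 were lost (adjusted p from 0.0593 to 0.304, CDH3 at -0.12), as were all 3 with TiO2 10 (adjusted p from 0.0877 to 0.142). Against TiO2 100, MWCNT 100 had higher CDH1, FBN1 and SYNM and lower MYH11, CD14 and CD3E, where 12.2% of all genes were called. Against TiO2 10, MWCNT 10 had higher FBN1 and lower ACTG2, EMCN and CD3E, where 4.88% of all genes were called. The part of these in the COL1A1, COL8A1, COL8A2, COL9A3, COL13A1 and COL16A1 results was not tested.

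**Figure D4:**
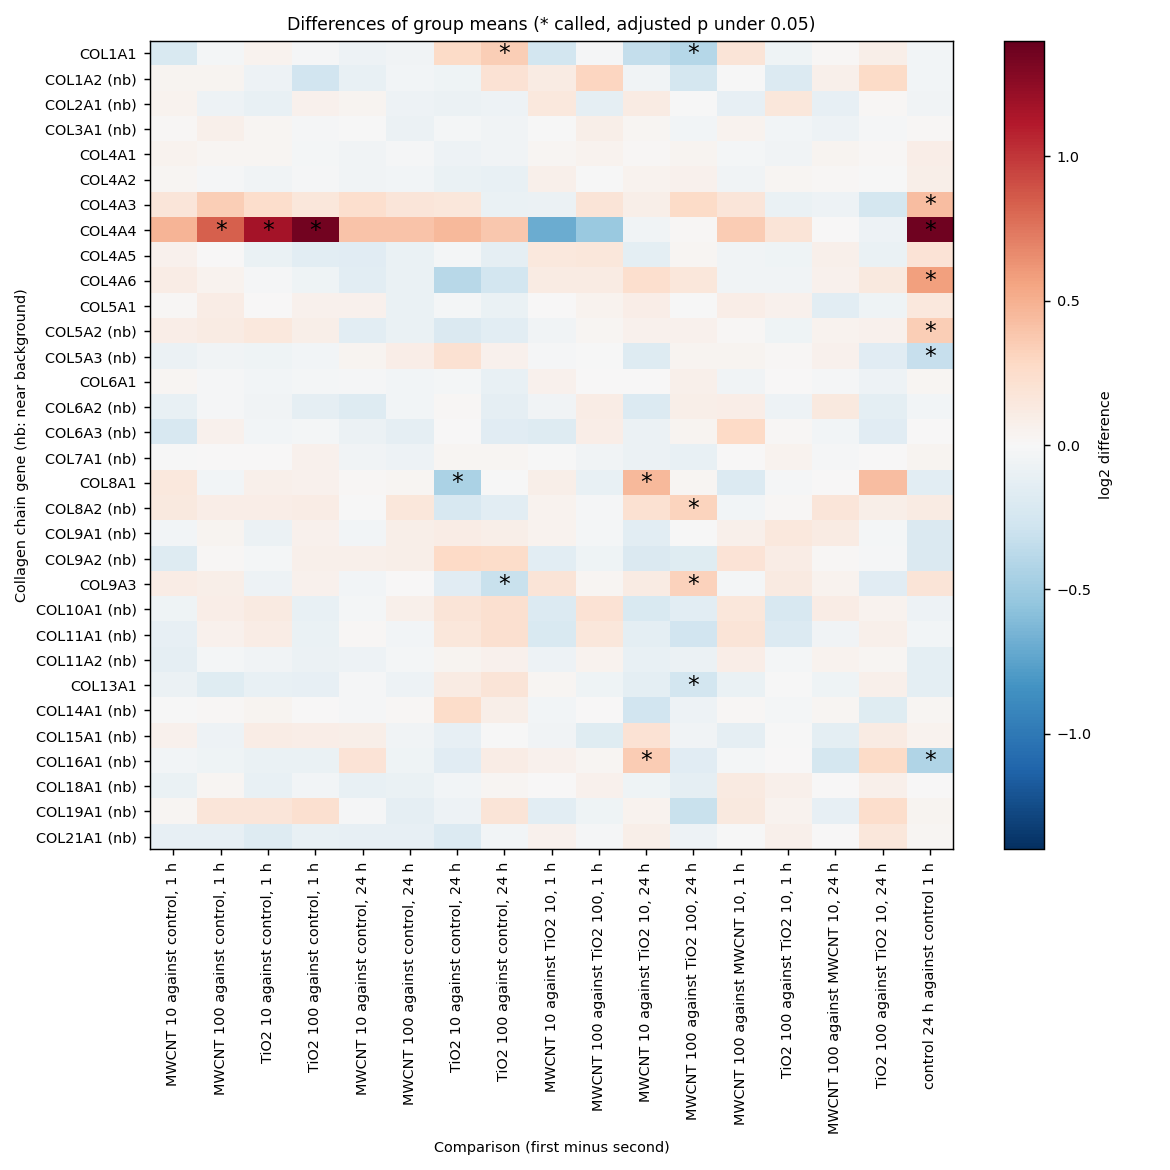
Log2 differences of the 32 chains (rows, with nb for near background) in the 17 comparisons between 2 groups (columns), red for higher and blue for lower in the first-named group, with a star for an adjusted p under 0.05. The 18 stars fall on 11 chains, 4 of them on COL4A4, whose largest difference is 1.36.

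The genes that modify, export, trim, bind or hold collagens were read from the same fit. None of the 4 lists had a called member at 1 h in any comparison with the controls, or at 24 h with MWCNT, by limma, and each list had 0 to 2 members at an unadjusted p under 0.05 there. Among 21 measured genes of hydroxylation, folding and export, 2 rose and 1 fell with TiO2 100 at 24 h, or 14.3%, against 13.2% of all genes. CREB3L1, a transcription factor of collagen secretion, rose by 0.42 ± 0.11 (adjusted p = 0.0176), and PPIB, the prolyl isomerase of procollagen folding, by 0.14 ± 0.04 (adjusted p = 0.0213). KLHL12, which enlarges transport vesicles to hold procollagen, fell by 0.26 (SE 0.06, adjusted p = 0.006). TiO2 10 gave 1 higher and 1 lower: CREB3L1 rose by 0.42 and KLHL12 fell by 0.26 there too, or 9.52%, against 6.05% of all genes. Without control replicate 1 the calls on PPIB with TiO2 100 (adjusted p = 0.061) and CREB3L1 with TiO2 10 (adjusted p = 0.0768) were lost.

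Of 12 genes of cleavage and cross-linking, 3 rose and 1 fell with TiO2 100 at 24 h, or 33.3%, against 13.2% of all genes. TGM2, a cross-linking transglutaminase, rose by 0.45 ± 0.08 (adjusted p = 0.000935), BMP1, which removes the C-terminal propeptide, by 0.22 ± 0.06 (adjusted p = 0.0165), and the lysyl oxidase LOX by 0.21 ± 0.07 (adjusted p = 0.042). Its relative LOXL2 fell by 0.19 (SE 0.06, adjusted p = 0.0396). With TiO2 10, 1 rose, ADAMTS2, which removes the N-terminal propeptide, by 0.37 ± 0.09 (adjusted p = 0.0267). That is 8.33% of the list, against 6.05% of all genes. Without control replicate 1 the calls on BMP1, LOXL2 and ADAMTS2 were lost (adjusted p = 0.0828, 0.0966 and 0.0712). LOX was higher with TiO2 100 than TiO2 10 by 0.39 ± 0.07 (adjusted p = 0.00203). The medians of this list and the one before it were 0.0022 and 0.016 with TiO2 100, against -0.031 over all genes.

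Of 8 collagen receptors, 2 rose with each TiO2 dose at 24 h and 0 fell, or 25%, where 6.05% and 13.2% of all genes were called. ITGA10, an integrin subunit that binds collagen, rose by 0.34 ± 0.08 and 0.36 ± 0.08 (adjusted p = 0.0231 and 0.00834). With TiO2 10 the second was GP6, the platelet collagen receptor, at 0.32 ± 0.08, and with TiO2 100 MRC2, which takes up collagen fragments, at 0.20 ± 0.06. The ITGA10 and GP6 calls with TiO2 10 were lost without control replicate 1 (adjusted p = 0.0815 and 0.157). Of 19 basement membrane and anchoring partners, 0 rose and 2 fell with TiO2 100: the laminin chain LAMB2 by 0.30 (SE 0.06, adjusted p = 0.00428) and the proteoglycan HSPG2 by 0.26 (SE 0.08, adjusted p = 0.037). The laminin chain LAMC3 rose by 0.39 ± 0.08 with TiO2 10 (adjusted p = 0.0174, and 0.0706 without control replicate 1). These are 10.5% and 5.26% of the list, against 13.2% and 6.05% of all genes. Of the genes named from the 4 lists, CREB3L1, ADAMTS2, ITGA10, GP6, LAMC3, MIA2 and NID2 were near background, with no group mean at 7.18.

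In the controls from 1 to 24 h, 3 genes of hydroxylation, folding and export rose and 3 fell. Among them MIA2, an export receptor at the endoplasmic reticulum, rose by 0.61 ± 0.14, KLHL12 by 0.39 ± 0.06 and the prolyl hydroxylase subunit P4HA2 by 0.30 ± 0.05, while the prolyl 3-hydroxylase P3H2 fell by 0.25. In cleavage and cross-linking, 2 rose and 4 fell. TGM2 fell by 0.66 (adjusted p = 3.46e-07), LOXL1 by 0.35 and LOX by 0.31, and PCOLCE, an enhancer of BMP1, rose by 0.34. Of the receptors 1 rose, ITGA10 by 0.24, and 0 fell. That call was lost without 24 h control replicate 1 (adjusted p = 0.0568). Of the basement membrane partners 4 rose and 2 fell. NID1 and NID2, the nidogens that link laminin to type IV collagen, rose by 0.69 ± 0.15 and 0.60 ± 0.11 (adjusted p = 0.00118 and 0.000136), and LAMA5 and the linker PLEC fell by 0.31 and 0.44. The called shares of the lists were 28.6%, 50%, 12.5% and 31.6%, against 31.7% of all genes.

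Between the particles, KLHL12 was higher and CREB3L1 lower with MWCNT than with TiO2 at both doses at 24 h, by 0.26 and 0.44 at 10 ug/ml and 0.23 and 0.38 at 100 ug/ml. At 100 ug/ml 2 genes of hydroxylation, folding and export were higher and 3 lower. Beside KLHL12 and CREB3L1, MIA2 was higher by 0.51 (adjusted p = 0.0229) and PPIB lower by 0.14 (adjusted p = 0.0224). Of cleavage and cross-linking 1 was higher (LOXL2) and 3 lower (BMP1, LOX and TGM2). Of the receptors ITGA10 and MRC2 were lower. LAMB2 was higher by 0.21 and LAMB1 lower by 0.30. At 10 ug/ml ADAMTS2, ITGA10 and LAMC3 were lower by 0.40, 0.35 and 0.33. In the order of hydroxylation, cleavage, receptors and basement membrane, 23.8%, 33.3%, 25% and 10.5% of the lists were called at 100 ug/ml, against 12.2% of all genes, and 9.52%, 8.33%, 12.5% and 5.26% at 10 ug/ml, against 4.88%. These values use the same TiO2 arrays as the comparisons with the controls. In the interaction tests 3 genes of the lists passed, all for TiO2 100: TGM2 at 0.45 (adjusted p = 0.0275), BMP1 at 0.30 (adjusted p = 0.0494) and KLHL12 at -0.31 (adjusted p = 0.0459). Without 24 h control replicate 1 those on TGM2 and BMP1 were lost (adjusted p = 0.0529 and 0.0917). In the same order of lists, 4.76%, 16.7%, 0% and 0% were called for TiO2 100, against 2.2% of all genes.

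**Figure D5:**
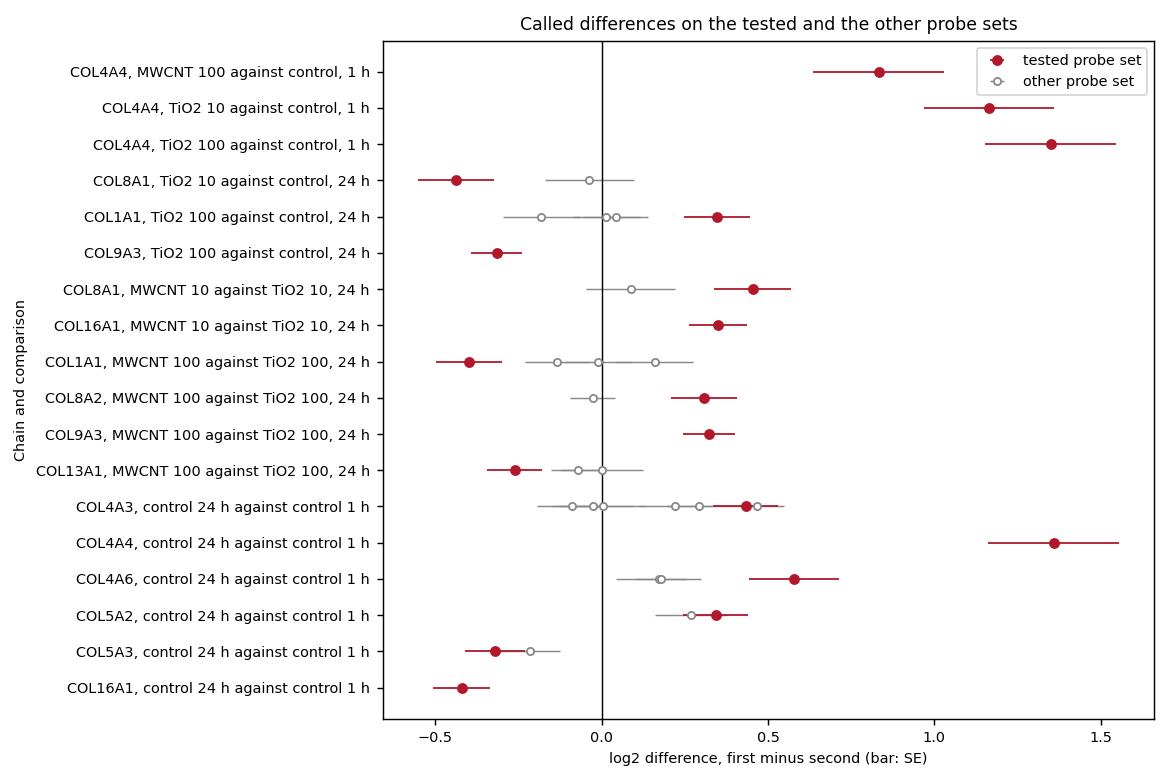
The 18 called differences (log2, first minus second group) on the tested probe set (filled, with SE) and on the other probe sets of the same chain (open, with SE). The other sets of COL1A1, COL4A6, COL5A2, COL5A3, COL8A1, COL8A2 and COL13A1 lie nearer 0 than the tested one, those of COL5A2 and COL5A3 by less. Those of COL4A3 run from -0.089 to 0.47, against 0.43 on the tested one. COL4A4, COL9A3 and COL16A1 have no other set.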

How the data were processed

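The deposited table holds log2 expression values per probe set for 30 arrays, made with RMA per the submitters' processing notes (version and genome build not given in the sources used here). RMA corrects background, brings the arrays to a common distribution and sums the probes of a set, so a shift shared by most genes would be removed. No further normalisation was applied. Of 22277 probe sets, 62 are array controls and 19064 carry 1 symbol in the platform annotation. Per gene, the set with the highest mean was kept. The 32 chains matched 32 gene IDs in RefSeq.

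Groups were taken from the labels. All 10 groups were fitted together in limma 3.58.1 (R 4.3.3), two-sided, with Benjamini-Hochberg adjustment within a comparison. With 3 arrays in each of 2 groups, an exact permutation test of 1 gene has 0.10 as its smallest p. The fit was tested on simulated data. Named were all called chains, the 5 highest, the largest difference above background where none was called, and up to 4 called members per list (smallest adjusted p first). The members, lists and markers were chosen with earlier results of these data known. COL21A1, COL11A1, COL1A2, COL7A1 and COL15A1 and the markers were named after their values were seen. The alternatives were a filter on low values, cyclic loess, the compared groups alone, a replicate block, the mean of all probe sets, array weights (statmod 1.5.0) and leaving out each array. Promoters were read with pandas 2.3.3 and numpy 2.4.6 in Python 3.11.15, and plots drawn with matplotlib 3.10.9.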

Additional observations from a re-analysis of the deposited data

How the results depend on the processing

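Of 211 refits of the 18 called chain and comparison pairs, 163 stayed past the threshold, 48 lost it and 0 changed direction, and 7 pairs kept their call in every refit. Only the compared groups in the fit lost 8 of 18 calls, the mean of all probe sets 6 and cyclic loess 2, whereas array weights and the filter on low values lost none of 18 and 13. The number of called chains moved by over 1.5 times as follows. With the filter it was 2 for MWCNT 100 against control at 1 h, 1 for TiO2 100 against TiO2 10 at 24 h and 2 for the TiO2 100 interaction. With cyclic loess it was 0 for TiO2 10 against control and 1 for MWCNT 10 against TiO2 10, both at 24 h. With only the compared groups it was 0 for TiO2 10 and for TiO2 100 against control and 0 for MWCNT 10 against TiO2 10 at 24 h. With the mean of all probe sets it was 0 for TiO2 10 and 1 for TiO2 100 against control, and 1 for MWCNT against TiO2 at each dose, all at 24 h. With array weights it was 1, 5 and 6 for MWCNT 100, TiO2 10 and TiO2 100 against control at 24 h, 1 for MWCNT 10 against TiO2 10 at 1 h, 7 for MWCNT 100 against TiO2 100 at 24 h, 2 for TiO2 100 against TiO2 10 at 24 h, and 1, 2 and 2 for the interactions of MWCNT 100, TiO2 10 and TiO2 100. The 25th percentile put 8 chains near background in place of 20. The cause of these moves was not tested, except that the filter leaves 7177 genes.

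Leaving out 1 array at a time gave 0 to 1 called chains for MWCNT 100 against control at 1 h, and at 24 h 0 to 2 for TiO2 10 and 1 to 4 for TiO2 100 against control, 0 to 3 for MWCNT 10 against TiO2 10 and 1 to 4 for MWCNT 100 against TiO2 100. It gave 0 to 1 for the interactions of MWCNT 100, TiO2 10 and TiO2 100. COL4A4 at 24 h reversed against the control with MWCNT 10 (-0.0099 with array weights, and -0.0055 to 0.65 leaving out 1 array, lowest without control replicate 1) and with MWCNT 100 (-0.0094, and -9.08e-05 to 0.65). It had not passed in either. Without that array, COL4A4 in the controls rose by 1.76 between the times.

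A replicate block changed no call: 18 of 18 pairs kept theirs, 21 of 21 counts stayed the same, and the count for MWCNT 100 against control at 1 h was 1 with it. Over 135 pairs of arrays that share a number, the correlation of their deviations from the group means ran from -0.45 to 0.536 (median 0.0235, 53 pairs over 0.1), against a median of -0.0243 for different numbers, so the numbers were not taken to pair the arrays. No detection call was available here.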
